A study of Homo sapiens with 8 samples.

Results

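The 10 autophagy core genes described here were ULK1, ULK2, BECN1, ATG7, ATG12, ATG5, ATG16L1, MAP1LC3B, GABARAPL1 and SQSTM1. They were taken by gene symbol from an mRNA expression table of 19475 entries and from 4 lists of N6-methyladenosine (m6A) peaks, in which they held 15 of 22001 merged regions. All 10 were in the table and all 10 had at least 1 peak. The cells were HCT116, a human colorectal carcinoma line, treated with PBS (Control) or with Fusobacterium nucleatum, a bacterium found in colorectal tumours. The labels gave no dose or duration. The 8 samples were 2 Control inputs, 2 Control IPs, 2 F. nucleatum inputs and 2 F. nucleatum IPs, where an IP is the fragments of poly(A) RNA bound by an antibody to m6A and an input is the RNA before that selection. The 4 inputs gave mRNA levels as FPKM (fragments scaled by transcript length and by the mapped total of the library), and each IP with the input of the same number gave 1 peak list. The question was whether the bacterium changed the mRNA or the m6A peaks of these genes.

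Macroautophagy encloses cytoplasm, organelles or bacteria in a double membrane, the autophagosome, and delivers them to the lysosome. The ULK kinases start the process and a lipid kinase complex with BECN1 marks the membrane. Ubiquitin-like conjugation by ATG7 then joins ATG12 to ATG5, which with ATG16L1 directs the attachment of ATG8 proteins such as MAP1LC3B and GABARAPL1 to lipid. SQSTM1 (p62) ties cargo to these ATG8 proteins and is itself degraded with the cargo, so levels of its mRNA and protein need not move together. m6A is a methyl mark on adenosines of mRNA, laid down by a METTL3-containing complex at DRACH motifs (H being any base but G, R a purine and D any base but C), typically near stop codons and in 3′UTRs.

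Of the 15 regions, 9 had a peak in all 4 lists, and 1 site from each is printed here because these are the m6A regions that recurred in every library. Each site is the GGAC, a frequent core of DRACH, nearest to the middle of the region, in a window of 25 nt read 5′ to 3′ on the transcript strand of GRCh37 with GGAC in capitals.
ULK1, 3′UTR, chr12:132406205-132406229, plus strand: cagccccggaGGACaggcaagggcc
ATG12 region 1, start of the coding sequence, chr5:115177175-115177199, minus strand: tggaggggaaGGACttacggatgtc
ATG12 region 2, coding sequence, chr5:115173364-115173388, minus strand: aaccatccaaGGACtcattgacttc
ATG12 region 3, 3′UTR, chr5:115167326-115167350, minus strand: tagcatgaatGGACtcagaaaaatg
ATG5, 3′UTR, chr6:106634162-106634186, minus strand: aagacttaccGGACcactgaaggtc
ATG16L1, 3′UTR, chr2:234203086-234203110, plus strand: ggtatagcatGGACctcccagagaa
MAP1LC3B, 5′UTR, chr16:87425979-87426003, plus strand: ggagccgccgGGACcctcgcgtcgt
GABARAPL1, 3′UTR, chr12:10374473-10374497, plus strand: gggagcacctGGACttgggggtagg
SQSTM1, 3′UTR, chr5:179264713-179264737, plus strand: ctaggtggcaGGACaaattgcgccc
GGAC was present in 11 of the 15 regions and in 72.8% of all regions. The peaks do not resolve single bases, so these are motif matches inside called regions and not measured methylation sites.

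The 4 inputs were close in overall properties. With Control 1 set to 1, the inputs of Control 2, F. nucleatum 1 and F. nucleatum 2 had estimated depths of 1.11, 1.24 and 0.913. These are rough, since they rest on the most frequent ratio between inputs among 261 to 329 genes at 0.05 FPKM or less. Only 6 to 12 genes shared that ratio in each pair of inputs. No absolute depth could be had for any input, and no depth at all for any IP. The epithelial markers EPCAM, KRT8, KRT18, KRT19 and CDH1 were between 11.9 and 2286 FPKM in every library, and CEACAM5 was listed at 0 in all 4. PTPRC (leukocytes) and PECAM1 (endothelium) were at most 0.0111 FPKM, COL1A1 was 3.78 to 5.72 FPKM and DES 2.59 to 3.21 FPKM, whose part in the results was not tested. In bulk RNA, fewer cells of a type and less RNA per cell cannot be told apart. The study's methods call the 2 replicates of a group biological, and the labels do not say whether they were separate cultures.

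mRNA of the 10 genes spanned from 1.64 to 128 FPKM and changed little with the bacterium. None of the 10 passed the threshold of an adjusted p under 0.05 in limma, against 89 of 11088 tested genes (0.803%). At an unadjusted p under 0.05, 2 of the 10 were higher in F. nucleatum-treated cells, SQSTM1 and GABARAPL1, against 7.04% of all tested genes. In 6 of the 10 both F. nucleatum libraries lay above both Control libraries, narrowly so for ULK2 and MAP1LC3B. This pattern was found in 26.1% of all tested genes. In 0 of the 10 both lay below, against 21.1%. The median log2 fold change of the 10 was 0.12, beside 0.014 over all tested genes. By mean FPKM the order from high to low was SQSTM1, ATG12, MAP1LC3B, BECN1, ATG16L1, GABARAPL1, ATG5, ATG7, ULK1 and ULK2. Neighbours in this order overlapped in their 4 libraries for MAP1LC3B with BECN1, ATG16L1 with GABARAPL1, and GABARAPL1 with ATG5, and were separate for the others.

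**Figure D1:**
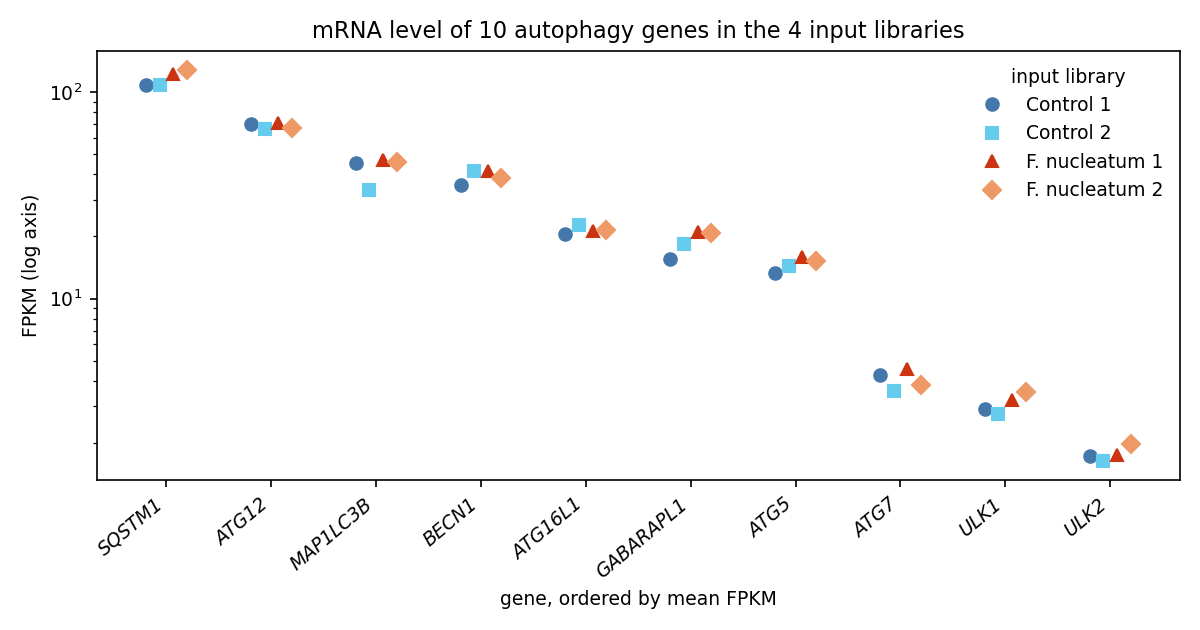
FPKM (log axis) of the 10 autophagy genes, ordered by mean level, with 1 mark for each of the 4 input libraries. SQSTM1 lies at 108 to 128 FPKM and ULK2 at 1.64 to 1.97 FPKM, and marks of the same gene stay close together compared with the distance between most genes.

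The initiation kinases were the least abundant of the 10 together with ATG7. ULK1, the kinase that receives signals from AMPK and mTORC1, was at 2.90 and 2.74 FPKM in the Control libraries, against 3.21 and 3.51 FPKM with the bacterium. Both treated libraries lay above both controls, with a log2 fold change of 0.19 (95% confidence interval -0.04 to 0.41, limma adjusted p of 0.423). ULK2, its paralogue, was at 1.73 and 1.64 FPKM in the Control libraries, against 1.74 and 1.97 FPKM with the bacterium, where the higher control and the lower treated library nearly coincided. Its log2 fold change was 0.09 (limma adjusted p of 0.704), and 0.03 without F. nucleatum 2 or 0.15 without F. nucleatum 1.

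BECN1 (Beclin 1), the scaffold of the PIK3C3 lipid kinase complex, was at 35.4 and 41.5 FPKM in the Control libraries, against 41.5 and 38.2 FPKM with the bacterium. The groups overlapped, and the log2 fold change was 0.05 (95% confidence interval -0.18 to 0.29).

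Of the conjugation genes, ATG5 alone had separate groups. ATG7, the E1-like enzyme that activates both ATG12 and the ATG8 proteins, was at 4.28 and 3.56 FPKM in the Control libraries, against 4.55 and 3.82 FPKM with the bacterium. The spread within each group was wider than the distance between their means, and the log2 fold change was 0.08. ATG12, the ubiquitin-like protein, was at 70.0 and 66.2 FPKM in the Control libraries, against 71.4 and 67.5 FPKM with the bacterium, again overlapping (log2 fold change of 0.03, 95% confidence interval -0.13 to 0.18). ATG16L1, which places the conjugate on the membrane, was at 20.5 and 22.6 FPKM in the Control libraries, against 21.2 and 21.5 FPKM with the bacterium. Both treated values fell between the controls (log2 fold change of -0.0092, 95% confidence interval -0.19 to 0.17). ATG5, the acceptor of ATG12, was at 13.3 and 14.4 FPKM in the Control libraries, against 15.9 and 15.3 FPKM with the bacterium. These groups were separate, with a log2 fold change of 0.16 (95% confidence interval -0.03 to 0.34, limma adjusted p of 0.423), which was 0.10 without Control 1.

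On the log2(FPKM + 1) scale the ATG8 genes and the cargo receptor had the highest estimates. This order depended on the scale, since the ratio of mean FPKM was 1.19 for ULK1, 1.18 for MAP1LC3B and 1.16 for SQSTM1. MAP1LC3B, which encodes the LC3B protein whose lipid-bound form is the usual marker of autophagosomes, was at 45.2 and 33.5 FPKM in the Control libraries, against 47.2 and 46.0 FPKM with the bacterium. Control 2 stood apart from the other 3 libraries. The log2 fold change was 0.25 (95% confidence interval -0.09 to 0.60, limma adjusted p of 0.472). Without Control 1, which leaves the outlying Control 2 as the only control, the estimate was 0.46, and without Control 2 it was 0.04. These were also its extremes over all alternatives. A near-identical copy, MAP1LC3B2, was listed at 0.148 to 0.458 FPKM, so fragments shared by both could be split between them.

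GABARAPL1, an ATG8 protein of the GABARAP subfamily, was at 15.6 and 18.4 FPKM in the Control libraries, against 21.1 and 20.9 FPKM with the bacterium. Both treated libraries were above both controls, at a mean of 21.0 ± 0.118 against 17.0 ± 1.98 FPKM (SD, n = 2), or 1.23 times. The log2 fold change of 0.29 (95% confidence interval 0.06 to 0.52) had an unadjusted limma p of 0.0213 and an adjusted p of 0.294. It was 0.18 without Control 1 and 0.40 without Control 2, and over all alternatives the limma adjusted p ran from 0.0545 to 0.797. SQSTM1 was at 108.2 and 108.0 FPKM in the Control libraries, against 122 and 128 FPKM with the bacterium. The means were 108.1 ± 0.143 and 125.2 ± 3.89 FPKM (SD, n = 2), a separation wider than the spread of either group, at 1.16 times. Its log2 fold change of 0.21 (95% confidence interval 0.08 to 0.34) had an unadjusted limma p of 0.00869 and an adjusted p of 0.233, and so did not pass. Exons of MRNIP lie on the opposite strand at the 3′ end of SQSTM1, at 6.58 to 8.66 FPKM, and reads of either strand could not be told apart where the library preparation is not known to keep strand.

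**Figure D2:**
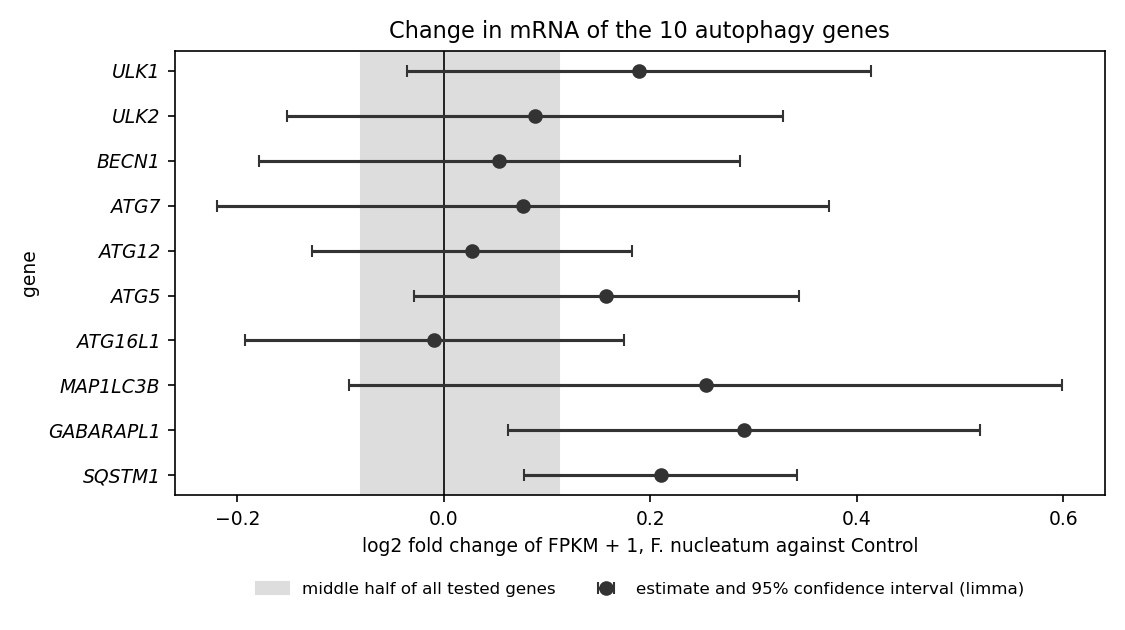
Log2 fold change (F. nucleatum against Control, on FPKM + 1) of the 10 genes with 95% confidence intervals from limma (n = 2 libraries a group). The grey band holds the central quartiles of the 11088 tested genes. The intervals of SQSTM1 and GABARAPL1 lie above 0 and the other 8 include 0.

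The other genes of the pathway were read in the same fit. Of 81 listed genes, 75 were tested and 6 were below the filter of 1 FPKM, and none of the 75 passed the threshold. At an unadjusted p under 0.05, 14 were higher and 1 was lower, against 7.04% and 6.45% of all tested genes. Both F. nucleatum libraries were above both controls in 35 of the 75 and below in 6, against 26.1% and 21.1% of all tested genes. The median log2 fold change was 0.09, beside 0.014 over all tested genes. The gene with the largest change in each role group is given here. GABARAPL2, another ATG8 protein, had the smallest adjusted p of the list, at 44.7 and 45.6 FPKM in the Control libraries, against 58.1 and 60.2 FPKM with the bacterium (log2 fold change of 0.38, limma adjusted p of 0.0783). NFE2L2 (NRF2), the oxidative stress factor that is released when SQSTM1 binds KEAP1, was at 33.5 and 36.6 FPKM in the Control libraries, against 46.5 and 46.9 FPKM with the bacterium (log2 fold change of 0.41, limma adjusted p of 0.103). PIK3C3, the lipid kinase that BECN1 binds, was at 5.14 and 5.77 FPKM in the Control libraries, against 7.24 and 7.54 FPKM with the bacterium (log2 fold change of 0.38, limma adjusted p of 0.207). These 3 genes had separate groups, which picking the largest change of a role group makes likely. Leaving out Control 2 leaves Control 1 as the only control, so genes passing in that fit were not read as results. TSC1, with a log2 fold change of 0.39 in the main fit, had overlapping groups. It was at 1.80 and 4.31 FPKM in the Control libraries, against 4.16 and 3.95 FPKM with the bacterium, so Control 1 alone was far below.

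PRKAA1, a catalytic subunit of AMPK and an upstream regulator of ULK1, had the largest change in the opposite direction, with a log2 fold change of -0.57 (limma adjusted p of 0.433). It was at 7.60 and 6.97 FPKM in the Control libraries, against 3.12 and 6.57 FPKM with the bacterium, so F. nucleatum 1 alone was far below the other 3. The 1 pathway gene lower at an unadjusted p under 0.05 was MTOR, with a log2 fold change of -0.21 (limma adjusted p of 0.342). MTOR was at 11.1 and 10.9 FPKM in the Control libraries, against 9.74 and 8.96 FPKM with the bacterium. DDIT4, also an upstream regulator, had the largest rise of the 75 tested pathway genes (log2 fold change of 0.43, limma adjusted p of 0.208). Its levels were 27.5 and 25.7 FPKM in the Control libraries, against 33.0 and 39.4 FPKM with the bacterium. In the remaining groups the largest log2 fold changes were 0.23 for ATG13 of the ULK complex, 0.20 for TMEM41B of lipid transfer, 0.20 for the protease ATG4A, 0.31 for the receptor OPTN, 0.36 for the fusion adaptor PLEKHM1 and 0.17 for the lysosomal membrane protein LAMP2. Each of these 6 had both F. nucleatum libraries above both Control libraries, as had 26.1% of all tested genes. They were picked for the largest change in the same libraries, which makes such separation likely, so it adds no support.

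The 4 peak lists held 46 peaks of the 10 genes, 11 in Control 1, 13 in Control 2 and 11 in each F. nucleatum list. The mean was 12 ± 1.41 in Control and 11 ± 0 in F. nucleatum lists (SD, n = 2), and the difference of -1 peak was within the spread of the controls. A two-sided exact permutation test gave a p of 1, which the ties among the counts forced. Every split of these 4 counts gives a difference of the same size, so the test could not decide. The difference turned to 1 when only peaks with a p-value of at most 1e-05 were kept, and it was 0 without Control 2 and -2 without Control 1. The 9 regions found in all 4 lists lay in 7 genes, against 51.5% of all regions being found in all 4. No region of the 10 genes was found in both Control lists and no F. nucleatum list, against 2.64% of all regions, and none in both F. nucleatum lists and no Control list, against 2.38%. Of the 11086 tested gene symbols, 67.2% had a region in all 4 lists. Leaving out a library loosens the rule, since the remaining list of its group then decides alone, and these counts rise over all regions. Without Control 1, 3 regions in ATG7 and ULK2 were in the remaining Control list only, against 11.3% of all regions under that setting. Without Control 2, 1 region (BECN1) was found only with the bacterium, against 6.6% of all regions, and without F. nucleatum 2 again 1 (ULK2), against 11.3%. Where a list has no peak it gives no value, so absence here is the lack of a call.

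Of the 9 recurrent regions, 4 held the stop codon in every list (ULK1, ATG5, ATG16L1 and GABARAPL1) and 2 held the start codon (ATG12 region 1 and MAP1LC3B). ATG12 region 3 reached the stop codon in Control 2 alone and began 32 to 62 nt after it in the other 3 lists. Positions here are along the canonical transcript, counted from the first base of the stop codon.

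**Figure D3:**
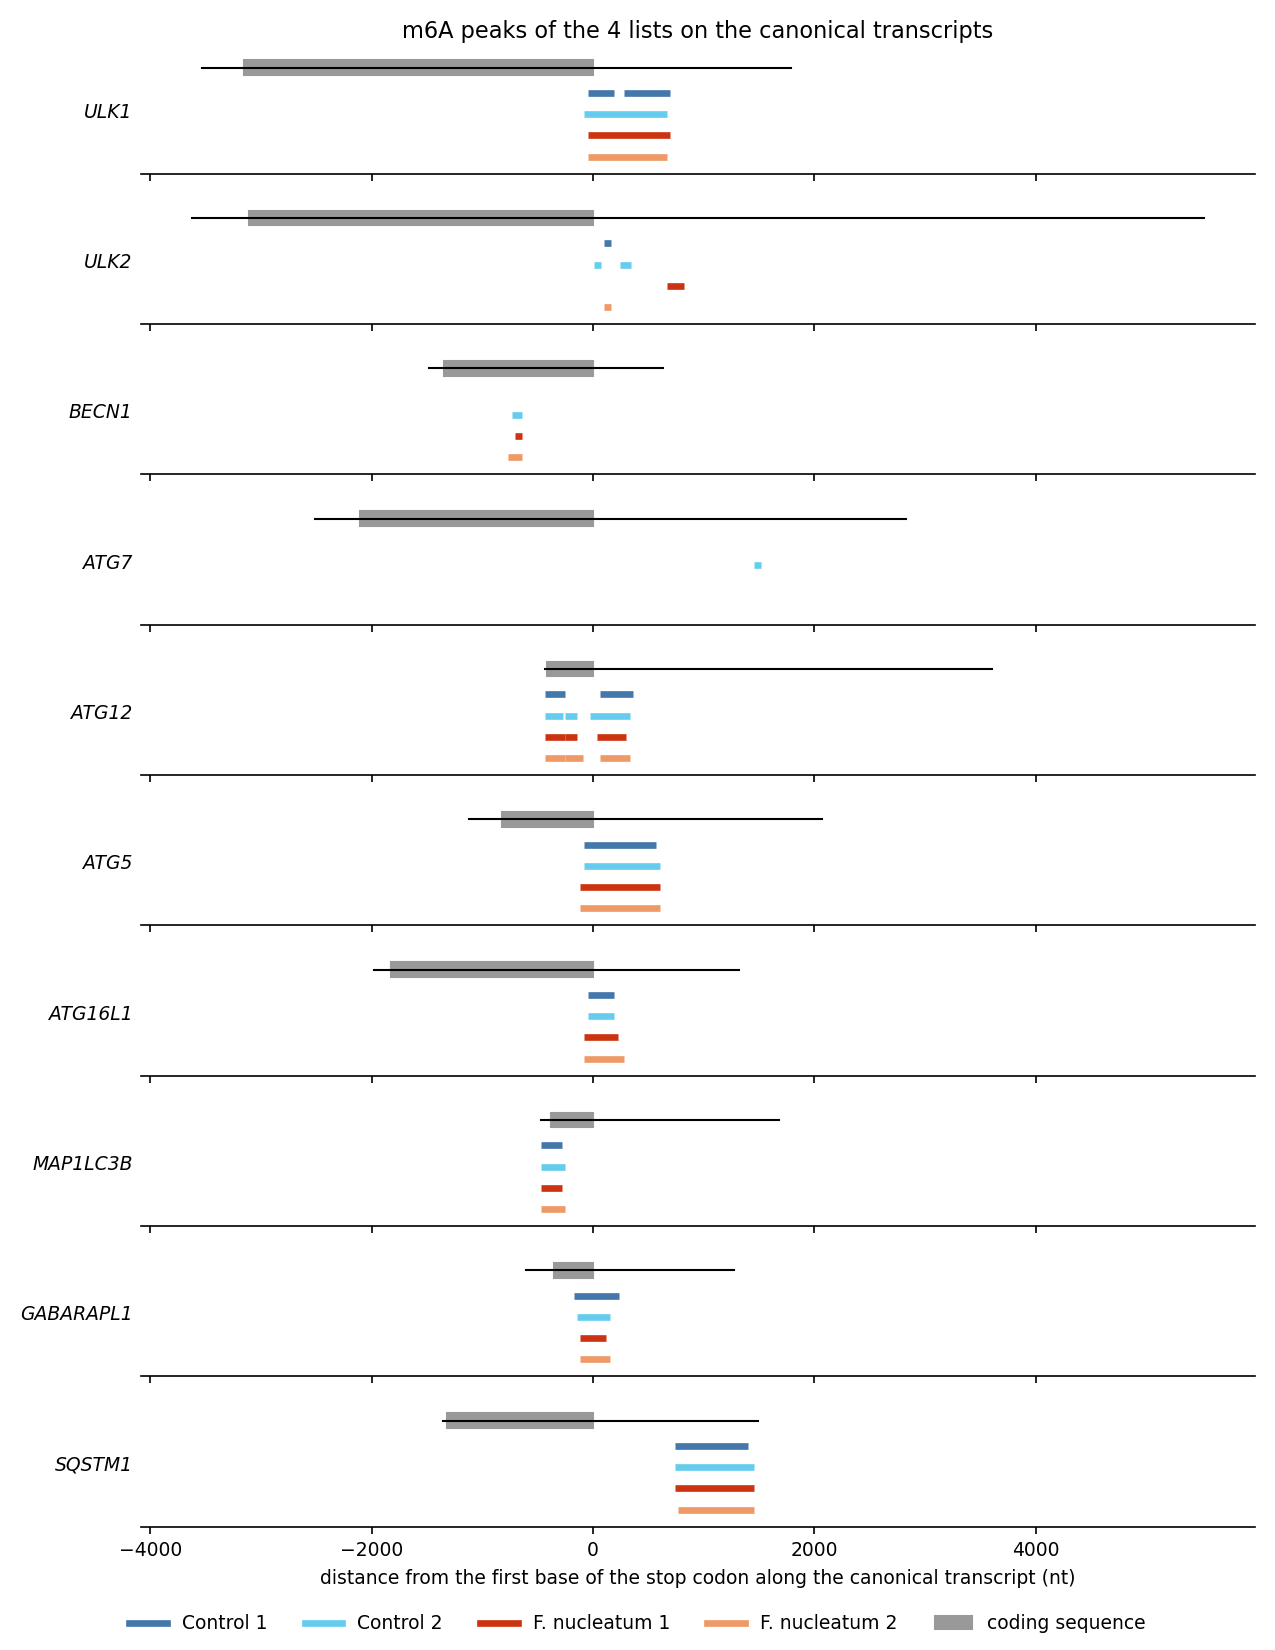
Peaks of the 4 lists (coloured bars) on the canonical transcript of each gene, with the coding sequence as a grey box and the distance from the stop codon in nt. Parts of peaks outside the canonical transcript are not drawn. Peaks of ULK1, ATG5, ATG16L1 and GABARAPL1 meet at the stop codon in every list, SQSTM1 peaks lie far downstream of it and MAP1LC3B peaks at the other end of the transcript.

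ATG5 held the region with the lowest deposited p-values of the 15. It ran from -114 to 602 nt around the stop codon within 1 exon (chr6:106633815-106634531, minus strand). The deposited p-values were 1e-104 and 1e-115 for the Control lists, against 1e-128 and 1e-106 for the lists with the bacterium. The groups overlapped, and in each list 4.27% to 5.26% of peaks had a p-value as low. The region had 20 DRACH motifs but only 1 GGAC, and 91.6% of its bases were called in all 4 lists.

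In ULK1 the region ran from -77 to 699 nt (chr12:132405757-132406603, plus strand), at the junction of coding sequence and 3′UTR, with 8 GGAC motifs in 777 nt. Control 1 called it as 2 peaks of 240 and 419 nt, and the other 3 lists called 1 peak of 717 to 747 nt each. The lowest p-value per list was 4.8e-10 and 8.3e-10 for the Control lists, against 6.3e-14 and 9.5e-09 for the lists with the bacterium, which lay on both sides of the controls.

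ATG16L1 had a region from -77 to 281 nt (chr2:234202917-234203275, plus strand). Both Control peaks covered the same 240 nt, while the peaks were 299 nt in F. nucleatum 1 and 359 nt in F. nucleatum 2, extended at both ends. The p-value was 1.2e-09 and 2.7e-09 for the Control lists, against 4e-21 and 1.5e-09 for the lists with the bacterium, so F. nucleatum 1 alone stood out.

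GABARAPL1 had a region over 2 exons from -176 to 238 nt (chr12:10373045-10374687, plus strand). Peaks were 415 and 297 nt long in Control and 238 and 267 nt in F. nucleatum lists, shorter in both treated lists. The p-value was 1.6e-19 and 7.9e-17 for the Control lists, against 1.3e-16 and 6.3e-14 for the lists with the bacterium, higher in both treated lists though by little for the closest pair.

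ATG12 was the only member with several recurrent regions. Region 3, from -28 to 360 nt and mostly in the 3′UTR (chr5:115167143-115167531, minus strand), had p-values of 6.3e-30 and 4e-23 for the Control lists, against 1.3e-39 and 2e-34 for the lists with the bacterium. Region 1 (chr5:115176616-115177548, minus strand) held the start codon, with 36.8% of its bases on the canonical transcript and exons of AP3S1 on the opposite strand. AP3S1, an adaptor subunit of vesicle transport, was at 323 to 339 FPKM, above ATG12 itself, and the part of its reads in this region was not tested. The p-values of region 1 were 1.2e-09 and 1.3e-12 for the Control lists, against 2.5e-12 and 2e-19 for the lists with the bacterium, which overlapped.

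ATG12 region 2 (chr5:115168328-115176292, minus strand) had the smallest share of its bases called in all 4 lists among the 9, at 22.6%. It was 61 nt in Control 1, 180 nt in Control 2 and F. nucleatum 1, and 270 nt over 3 exon blocks in F. nucleatum 2, with 63.3% on the canonical transcript and the rest in an exon of another ATG12 transcript. The Control 1 peak lay wholly in that other exon and did not cover the GGAC site shown above, which the other 3 lists covered. The p-value was 0.00045 and 0.00026 for the Control lists, against 4.5e-10 and 5e-12 for the lists with the bacterium, lower in both treated lists. When peaks with a p-value over 1e-05 were left out, this region remained in the F. nucleatum lists alone, as did 2.25% of all regions under that filter. A p-value of this kind depends on read depth as well as on enrichment. The IP depth was unknown, so these cannot be told apart here. ATG12 mRNA, read as 1 value for the whole gene, overlapped between the groups. The levels of its separate transcripts were not tested.

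MAP1LC3B had its region at the other end of the transcript (chr16:87425890-87435808, plus strand), from the 5′UTR over the start codon into the next exons, with 80.6% on the canonical transcript. Its p-values were 2.5e-29 and 2.5e-44 for the Control lists, against 6.3e-28 and 5e-26 for the lists with the bacterium, higher in both treated lists, with Control 2 far below the rest. Control 2 was also the library with the lowest MAP1LC3B mRNA. Peaks covered 239 and 268 nt in Control and 239 and 238 nt in treated lists.

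SQSTM1 had a region of 715 nt in the distal 3′UTR (chr5:179264333-179265047, plus strand), from 742 to 1456 nt after the stop codon, with 8 GGAC motifs and exons of MRNIP on the opposite strand. Its p-values were 3.2e-20 and 3.2e-37 for the Control lists, against 1.6e-27 and 5e-32 for the lists with the bacterium. Both treated values lay between the controls.

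Across the 9 recurrent regions, both F. nucleatum p-values were below both Control p-values in 2 (ATG12 regions 2 and 3), against 15.7% of all recurrent regions. Both Control p-values were below in 2 (MAP1LC3B and GABARAPL1), against 18.9%. The other 5 overlapped.

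**Figure D4:**
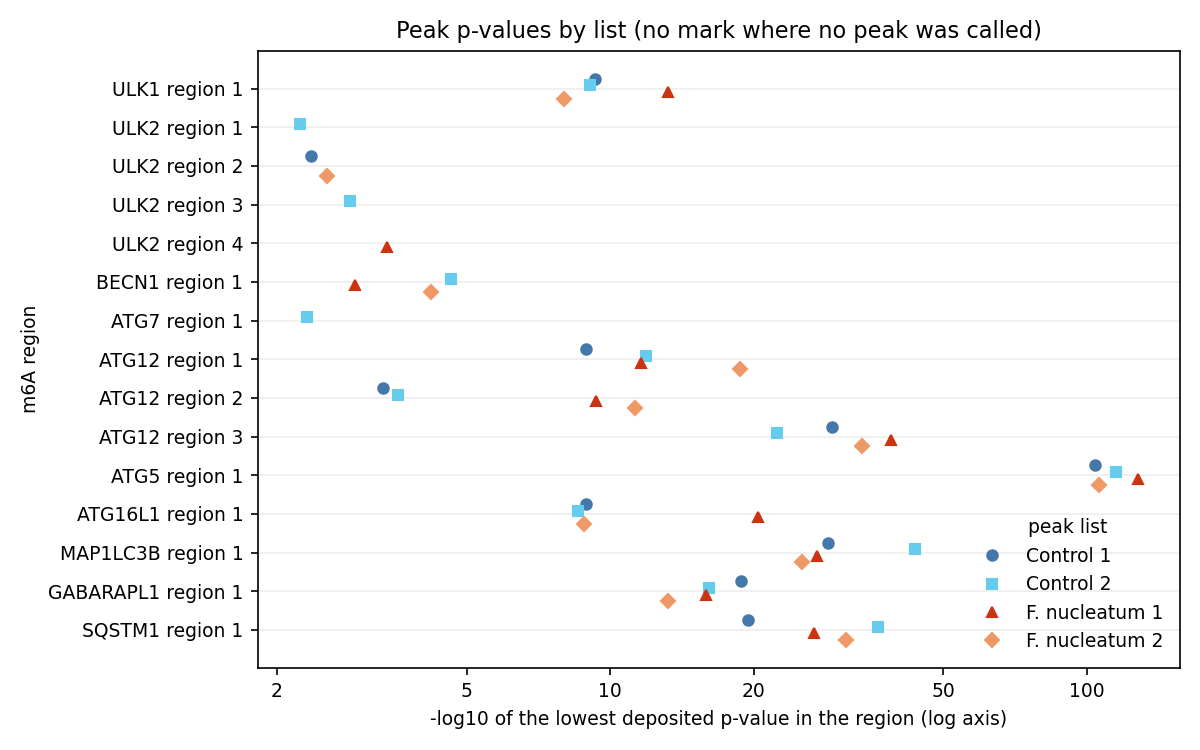
Negative log10 of the lowest deposited p-value of each of the 15 regions (log axis), with 1 mark per list and none where no peak was called. ATG5 lies beyond 100 in all 4 lists, and ULK2, BECN1 and ATG7 lie below 5. The groups do not overlap in ATG12 regions 2 and 3, where p-values were lower with the bacterium. They also do not overlap in MAP1LC3B and GABARAPL1, where p-values were lower in Control.

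The remaining 6 regions had p-values above 1e-05 in every list and belonged to 3 genes. BECN1 had a region in the coding sequence over 2 exons (chr17:40968050-40970335, minus strand), with no GGAC and 2 DRACH motifs, called in Control 2 (2.3e-05), F. nucleatum 1 (0.0012) and F. nucleatum 2 (6e-05) but not in Control 1. ULK2 had 4 short regions of 61 to 151 nt in the first part of its 3′UTR, with p-values from 0.0004 to 0.0058. One was shared by Control 1 and F. nucleatum 2, and the others were in Control 2 (2 regions) and F. nucleatum 1 (1 region). ATG7 had 1 region of 61 nt in the distal 3′UTR (chr3:11597768-11597828, plus strand), in Control 2 alone at 0.0048, with no DRACH motif and with exons of VGLL4 on the opposite strand, at 4.82 to 6.45 FPKM. ULK2 and ATG7, with ULK1, had the lowest mRNA levels of the 10, and the part of low expression in these calls was not tested.

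In bases, the peaks of the 10 genes covered 3765 and 4244 nt in the Control lists, against 4094 and 4182 nt with the bacterium. The shared bases over the bases in either list (Jaccard index) were 0.775 between the Control lists, 0.859 between the F. nucleatum lists and 0.786 to 0.835 between treatments. Over all peaks the same index was 0.705 between the Control lists, 0.716 between the F. nucleatum lists and 0.684 to 0.709 between treatments.

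Among the 75 other tested pathway genes, 52 (69.3%) had a region in all 4 lists, and 71 of their 125 regions (56.8%) were in all 4. Both Control lists and no F. nucleatum list held 4 of the 125 (3.2%, against 2.64% of all regions), and both F. nucleatum lists and no Control list held 2 (1.6%, against 2.38%). Both shares were near those over all regions. These few are named for that count and were chosen after their values were seen. The 4 were in RPTOR, the mTORC1 subunit that places ULK1 under nutrient control, in SNAP29, a SNARE of autophagosome fusion with 2 regions, and in WDFY3, an adaptor for aggregates, with p-values from 5.6e-05 to 0.0025. The 2 were in the coding sequences of the receptors CALCOCO1 (8.9e-06 and 6.2e-05) and TAX1BP1 (0.00028 and 1.4e-07).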

How the data were processed

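HCT116 cells treated with PBS or F. nucleatum were profiled by m6A sequencing. Per the submitters' processing notes, reads were trimmed with Trim Galore 0.3.3 and aligned to hg19 with HISAT2 2.1.0, and the authors computed the deposited FPKM of the 4 inputs with StringTie. The deposited peak lists, 1 per replicate, hold exon blocks and a score taken here as the authors' unadjusted p-value. The study's methods name MACS2 with a Fisher exact test as the peak caller. Each listed peak is named by gene and split into exons, as exomePeak does, so which program wrote them is in doubt. Strandedness is not given in the sources used here.

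Expression was tested with limma 3.58.1 (R 4.3.3, eBayes with trend, no covariate, Benjamini-Hochberg over all tested genes) on log2(FPKM + 1), with a filter of 1 FPKM on the 4-library mean that left 11088 genes, since FPKM are not counts. The pseudocount understates changes of low genes. Peaks sharing 1 bp or more of exon blocks on 1 strand were merged (Python 3.11.15, pysam 0.24.0). Sequences and transcripts came from GRCh37 with GENCODE v44lift37. No library pair was identical. Absolute depth was unknown, so no counting intervals are given.

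All 10 members were named. Of the other pathway genes, none passed the threshold, and the largest change in each role was named. MTOR, DDIT4, TSC1, the genes with regions in 1 group only and the other KEAP1-NRF2 genes were named after their values were seen. Members and lists were chosen with earlier results of these data known. Other filters, pseudocounts, normalizations, merging rules, the replicate block and leave-one-out fits were tried.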

Additional observations from a re-analysis of the deposited data

How the results depend on the processing

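No autophagy core gene passed under any alternative that kept all 4 libraries. Leaving out 1 library gave 0 to 1 called members (MAP1LC3B), 0 to 3 called pathway genes and 16 to 284 called genes in all, where a lone library is assumed to vary like the others. Over all genes, no filter on low values gave 40 calls against 89. The median log2 fold change of the members was 0.15 with a pseudocount of 0.1, 0.10 after quantile normalization and 0.088 after GC correction, and 0.11 to 0.16 without 1 library. ATG12 turned to -0.020 after GC correction. Without 1 library the log2 fold change ran from -0.056 to 0.16 for BECN1, -0.029 to 0.18 for ATG7, -0.013 to 0.068 for ATG12 and -0.078 to 0.060 for ATG16L1, so the direction of these 4 was not fixed. The samples share only replicate numbers (same-number correlation of deviations 0.024). The replicate block gave 90 called genes and 0 members, and a median of 0.12.

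Peaks with p of at most 1e-05 left 9 member regions, of which 1 (ATG12 region 2) was found with the bacterium only, against 2.25% of all regions under that filter, and the difference in peaks per list turned from -1 to 1. Without 1 library, 0 to 3 regions were in Control only and 0 to 1 with the bacterium only, the union held 12 to 15 regions, and the difference ran from -2 to 0 peaks. Reciprocal overlap of 50% gave 17 regions, 8 of them in all lists. The IP depth is unknown, so peak p-values could not be read as enrichment.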

Other observations

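SQSTM1 binds KEAP1 and so frees NFE2L2 (NRF2), and it is also among the genes NRF2 is known to induce, so the 6 other listed genes of the KEAP1-NRF2 axis were read beside both. They were named after their values were seen. NFE2L2 mRNA was 35.1 ± 2.20 FPKM in Control and 46.7 ± 0.253 FPKM in F. nucleatum libraries (SD, n = 2), while KEAP1 was 35.7 ± 2.88 and 35.6 ± 1.55 FPKM. The NRF2 target HMOX1 was 28.1 and 25.5 FPKM in Control and 24.6 and 25.1 FPKM in treated cells, below both controls. SRXN1 was 47.7 and 51.6 FPKM in Control and 53.5 and 53.6 FPKM in treated cells, above both controls. Of all tested genes, 21.1% had both treated libraries below both controls and 26.1% had both above. NQO1, GCLM and TXNRD1 had overlapping groups, with log2 fold changes of 0.07, 0.08 and 0.09. None of the 7 genes passed the threshold in limma over all genes.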
